A study of Bos taurus with 8 samples.

Results

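A set of 10 genes of the Notch pathway was followed between chondrocytes of the superficial zone (SZCs) and of the deep zone (DZCs) of calf knee cartilage. They are the receptors *NOTCH1*, *NOTCH2*, *NOTCH3* and *NOTCH4*, the ligands *JAG1*, *JAG2* and *DLL1*, and the target genes *HES1*, *HEY1* and *HEYL*. They were found by symbol among 24596 counted genes, and all 10 passed the filter on low counts that kept 12857 genes. Both groups are wild type chondrocytes from knee joints of calves aged 1 to 2 weeks, which were kept for 3 days in DMEM/F12 medium with fetal bovine serum before RNA was sequenced. SZC libraries come from a thin slice at the joint surface and DZC libraries from a slice near the bone, with the tissue between them discarded, and each zone has 2 RNA libraries. The study's methods call them biological duplicates, but the labels do not say whether the 2 libraries of a zone came from different calves, so p-values measure the spread between these libraries.

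Notch receptors are membrane proteins that are activated by ligands on a neighbouring cell. A ligand of the Jagged or Delta family exposes the receptor to cutting by ADAM proteases and then by γ-secretase, and the freed intracellular domain binds RBPJ in the nucleus and switches on targets such as the *HES* and *HEY* genes, which encode repressors of the basic helix-loop-helix family. In cartilage, Notch signaling is known for its part in chondrocyte maturation and in the progenitor cells near the joint surface.

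The libraries held between 19918970 and 21890549 counts, and *PRG4* (lubricin), with 69682 and 46976 counts in SZCs and 246 and 1372 in DZCs, matched the zone labels. The chondrocyte markers *COL2A1*, *ACAN* and *SOX9* were present in each library. Each DZC library stood apart from the others in some markers. In DZC replicate 1 *COL2A1* took 24.5% of the counts (95% Wilson interval 24.45% to 24.49%, which covers counting error only), against 6.31% to 12.9% elsewhere, and 10 cell cycle genes summed to 21.0 CPM there, against 209, 245 and 375 CPM in SZC replicate 1, SZC replicate 2 and DZC replicate 2. DZC replicate 2 was the highest library for 6 of 10 markers of hypertrophic cartilage and bone, among them *MMP13* (a collagenase), with 468 counts against 0 in the others, *ALPL* (alkaline phosphatase), with 445 against 1 to 10, and *IBSP* (bone sialoprotein), with 268 against 0 to 2. It was not for *IHH* (Indian hedgehog), which had 194 counts in the first DZC library and 48 in the second, for *PHOSPHO1*, of which it was the lowest, or for *BGLAP* and *DMP1*, with 1 count each there. Levels are given as CPM, read counts scaled by the trimmed mean of *M* values (TMM) of edgeR. Zone differences are given on the log2 scale, SZC over DZC, with p-values of edgeR's exact test and Benjamini–Hochberg adjustment over all tested genes (adjusted p). At the depth of these libraries, the floor of 3 counts used here corresponds to 0.129 to 0.187 CPM.

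None of the 10 Notch genes reached an adjusted p below 0.05 between the zones in edgeR's exact test, where 2.93% of all tested genes did (2.23% with higher levels in SZCs and 0.700% with higher levels in DZCs). *NOTCH3* had an unadjusted p below 0.05 and was the only member to do so, against 9.09% of all tested genes. DESeq2 called 0 of the 10 against 3.09% of all tested genes, with 1 member at an unadjusted p below 0.05 against 9.08%. The quasi-likelihood test of edgeR called 0 of the 12857 genes, so its count over the members adds nothing, and it had 1 member at an unadjusted p below 0.05 against 8.76% of all tested genes. The zone difference was positive for 7 members and negative for 3, with a median of 0.53 over the members and -0.04 over all tested genes. In 5 of the 10 the libraries of one zone both lay outside those of the other, 4 with SZCs above and 1 with DZCs above. Of all tested genes, 41.5% did not overlap, 21.0% with SZCs above and 20.5% with DZCs above.

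**Figure D1:**
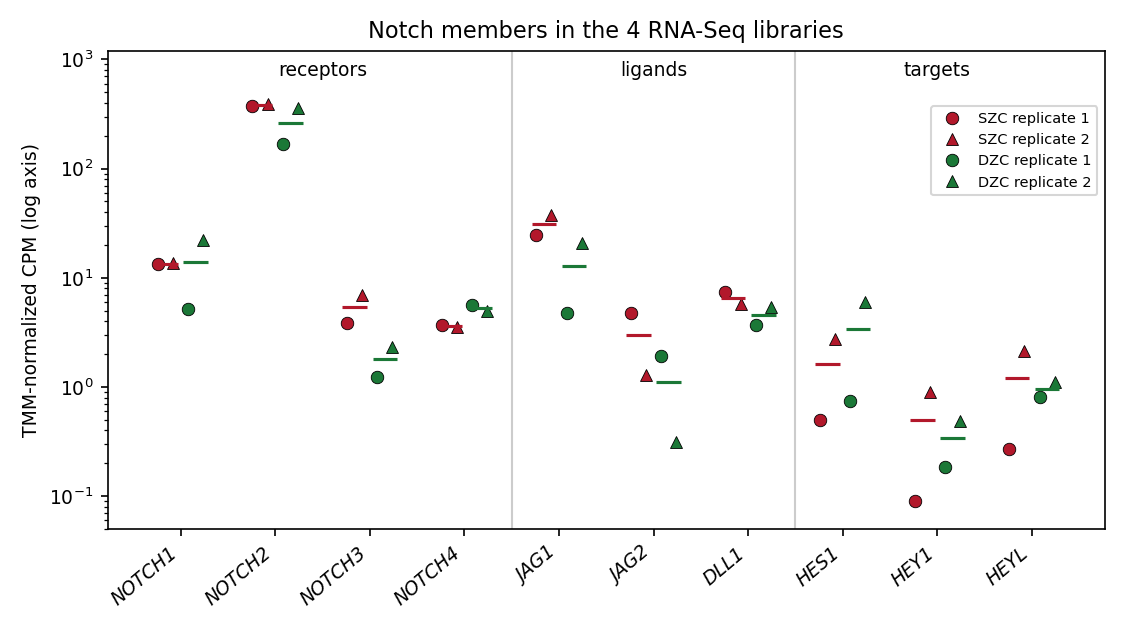
TMM-normalized CPM on a log axis for each Notch member in the 4 libraries, with SZCs in red, DZCs in green, circles for replicate 1, triangles for replicate 2 and a bar at each zone's mean (n = 2). *NOTCH2* has the highest CPM in each library. In *HES1*, *HEY1* and *HEYL* the triangle lies above the circle of the same zone, as it does in *NOTCH1*, *NOTCH2*, *NOTCH3* and *JAG1*.

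Among the receptors, *NOTCH2* took most of the reads. It had 8274 and 8990 counts in SZCs and 2690 and 7960 in DZCs, at 376 and 387 CPM against 167 and 357 CPM. DZC replicate 1 was the low library, and the other DZC library lay close to both SZC libraries. The SZC mean of 382 ± 8.08 CPM (SD, n = 2) exceeded the DZC mean of 262 ± 134 CPM (SD, n = 2) by 0.54 on the log2 scale (95% interval -0.39 to 1.47, adjusted p = 0.926). Its level ranked at the 97.3 percentile of all tested genes by CPM, which is not corrected for gene length.

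*NOTCH3*, a receptor best known from the smooth muscle and pericytes of vessel walls, was higher in SZCs without passing the adjusted test. It was at 3.86 and 6.94 CPM in SZCs and at 1.24 and 2.33 CPM in DZCs, from 85, 161, 20 and 52 counts. Both SZC libraries lay above both DZC libraries. The difference amounted to 1.58 on the log2 scale (standard error 0.67, 95% interval 0.27 to 2.89), or 3.0-fold, and edgeR's exact test gave p = 0.0211 before adjustment and 0.327 after it. The 7 mural cell markers summed to 2582 and 2078 CPM in SZCs and 2376 and 1724 CPM in DZCs, which overlap. Without *CSPG4*, which took most of these reads, they summed to 49.0 and 66.9 CPM in SZCs and 12.1 and 34.2 CPM in DZCs, which do not overlap, while *MCAM* and *MYH11* overlapped on their own. One of the 7, the potassium channel gene *KCNJ8*, passed the test with higher levels in SZCs (adjusted p = 0.0256), and *RGS5* was at 0 counts in DZC replicate 1. The part of such cells in the level of *NOTCH3* was not tested, and in bulk RNA fewer cells of a type and less RNA per cell cannot be told apart.

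*NOTCH1* had close zone means and a wide spread within DZCs. It was at 13.4 and 13.7 CPM in SZCs and at 5.23 and 22.4 CPM in DZCs, so the SZC libraries lay between the 2 DZC libraries. The zone means differed by -0.04 on the log2 scale (95% interval -1.42 to 1.35, adjusted p = 1), an interval that leaves room for a difference of over 2-fold in either direction. *NOTCH4*, a receptor associated with endothelial cells, was the only member with both DZC libraries above both SZC libraries. It was at 3.73 and 3.58 CPM in SZCs and 5.66 and 4.93 CPM in DZCs. The difference of *NOTCH4* was -0.53 on the log2 scale (95% interval -1.57 to 0.50, adjusted p = 0.963), and its highest and lowest libraries differed 1.58-fold, less than for any other member.

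The makeup of the receptor reads can be compared between libraries without any scaling. *NOTCH2* held 94.7% and 94.1% of the reads on the 4 receptor genes in SZCs and 93.2% and 92.3% in DZCs. These are shares of reads and not of transcripts, since transcript lengths were not used here. *NOTCH3* held 0.973% and 1.69% in SZCs and 0.693% and 0.603% in DZCs. The share of *NOTCH4* was 0.939% and 0.869% in SZCs and 3.15% and 1.28% in DZCs, where the value of DZC replicate 1 (95% Wilson interval 2.58% to 3.86%) lay above the others. *NOTCH4* itself had 91 counts in DZC replicate 1, against 82 and 83 in SZCs and 110 in DZC replicate 2. The 4 receptor genes together had 2885 counts in DZC replicate 1, against 8622 to 9551 in the other libraries. *NOTCH1* held 3.37% and 3.32% in SZCs, and 2.91% and 5.80% in DZCs. For *NOTCH2*, *NOTCH3* and *NOTCH4* the zones did not overlap, each with p = 0.333 in an exact two-sided permutation test, the smallest p that 2 libraries against 2 allow, and for *NOTCH1* the same exact permutation test gave p = 1.

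**Figure D2:**
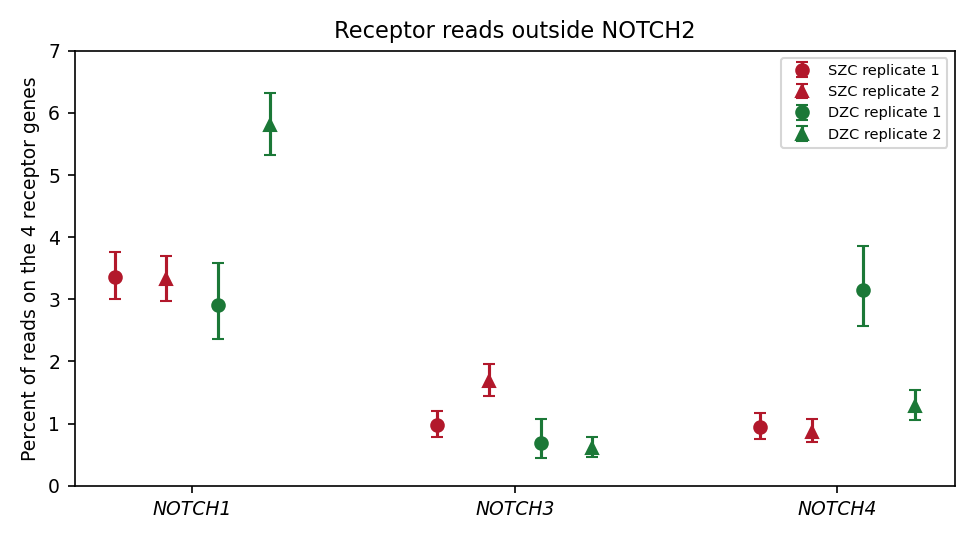
Share of the reads on the 4 receptor genes that fell on *NOTCH1*, *NOTCH3* and *NOTCH4* in each library, in percent, with 95% Wilson intervals for counting error; the rest of the reads fell on *NOTCH2*. The share of *NOTCH4* was highest in DZC replicate 1 at 3.15%, where the 4 receptor genes had 2885 reads against 8622 to 9551 elsewhere. That of *NOTCH1* was highest in DZC replicate 2 at 5.80%.

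Each of the 3 ligand genes had a higher mean in SZCs, and none of these differences passed the test. *JAG1* encodes Jagged1, the ligand with the most reads here. It had 542 and 871 counts in SZCs and 76 and 467 in DZCs, which is 24.6 and 37.5 CPM against 4.73 and 20.9 CPM. Both SZC libraries lay above both DZC libraries, and DZC replicate 1 was 4.43-fold below DZC replicate 2. This gave a log2 difference of 1.27 (standard error 0.71, 95% interval -0.12 to 2.67, adjusted p = 0.681), or 2.42-fold. Relative to *NOTCH2* within a library, the log2 ratio of *JAG1* to *NOTCH2* counts was -3.93 and -3.37 in SZCs and -5.15 and -4.09 in DZCs, so DZC replicate 1 was low in *JAG1* beyond its low *NOTCH2*.

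*JAG2*, which encodes the second Jagged ligand, varied more between replicates than between zones. It had 104 and 30 counts in SZCs and 31 and 7 in DZCs, or 4.72 and 1.29 CPM against 1.93 and 0.314 CPM. In each zone replicate 1 was the higher library, by 3.66-fold in SZCs and 6.15-fold in DZCs. The zones differed by 1.43 on the log2 scale (standard error 1.06, adjusted p = 0.873). *DLL1*, a Delta-type ligand, was at 7.36 and 5.77 CPM in SZCs and 3.67 and 5.38 CPM in DZCs. The SZC libraries both lay above the DZC libraries, by a margin of 5.77 to 5.38 CPM at the closest, and the log2 difference was 0.53 (95% interval -0.52 to 1.58, adjusted p = 0.966).

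The 3 target genes had few reads, and none separated the zones. *HES1*, a repressor that Notch induces within a short time, had 11 and 64 counts in SZCs and 12 and 134 in DZCs, or 0.50 and 2.76 CPM against 0.747 and 6.01 CPM. Replicate 2 was the high library in both zones. On the log2 scale the zone difference of *HES1* was -1.05 (standard error 1.17, 95% interval -3.35 to 1.25, adjusted p = 0.986). *HEYL*, a repressor of the Hey family, had 6 and 50 counts in SZCs and 13 and 25 in DZCs, giving a log2 difference of 0.33 (95% interval -1.72 to 2.37, adjusted p = 1). *HEY1*, of the same family, had 2 and 21 counts in SZCs and 3 and 11 in DZCs, so that both replicate 1 libraries were at or below the floor of 3 counts. For *HEY1* the log2 difference was 0.52 (95% interval -1.80 to 2.85, adjusted p = 1). Each of these 3 intervals leaves room for a difference of over 2-fold in either direction.

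**Figure D3:**
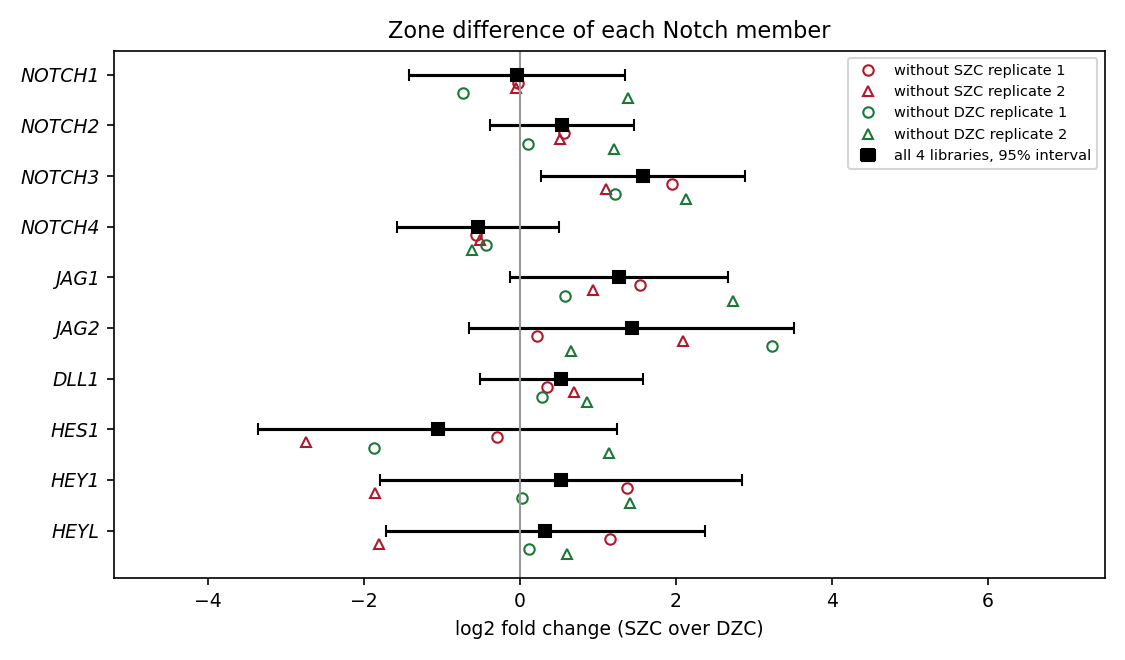
Log2 fold change (SZC over DZC) of each Notch member with all 4 libraries (square, with its 95% interval) and after dropping one library at a time (open symbols, coloured by the zone of the library left out). The estimates of *JAG1* run from 0.57 to 2.74 and those of *HES1* from -2.75 to 1.14.

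The estimates depended on which library was left out. Each library was left out in turn, in which case the lone library of a zone is assumed to vary like those of the other zone. Without DZC replicate 1 the log2 difference of *JAG1* was 0.57 (adjusted p = 0.524), that of *NOTCH2* 0.10 (adjusted p = 0.977) and that of *NOTCH1* -0.73 (adjusted p = 0.198). Without DZC replicate 2 the values were 2.74 (adjusted p = 4.65e-09), 1.21 (adjusted p = 0.0023) and 1.39 (adjusted p = 0.00555), so that *NOTCH1* changed direction. *NOTCH3* was at 1.21 (adjusted p = 0.344) and 2.14 (adjusted p = 0.0136) in these 2 fits. *JAG2* went the other way, with 3.24 (adjusted p = 0.0476) without DZC replicate 1 and 0.66 (adjusted p = 0.671) without DZC replicate 2, and it was at 0.22 (adjusted p = 1) without SZC replicate 1. Leaving out SZC replicate 2 turned the direction of *HEYL* (-1.80, adjusted p = 1) and *HEY1* (-1.86, adjusted p = 1), and leaving out DZC replicate 2 that of *HES1* (1.14, adjusted p = 0.544). In all, 1 member was called without DZC replicate 1 and 4 without DZC replicate 2, where 859 and 2768 of the 12857 genes were called. DZC replicate 1 was the lowest of the 4 libraries for 5 of the 10 members, *NOTCH1*, *NOTCH2*, *NOTCH3*, *JAG1* and *DLL1*, against 36.5% of all tested genes. The part of its low cell cycle genes or of its high *COL2A1* share in these levels was not tested. DZC replicate 2, with its high *MMP13*, *ALPL* and *IBSP*, was the highest of the 4 libraries only for *NOTCH1* and *HES1* among the 10 members. The share over all tested genes was not counted for this library, and a relation of these levels to those markers was not tested.

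*NOTCH1*, *NOTCH2*, *NOTCH3*, *JAG1*, *HES1*, *HEY1* and *HEYL* were higher in replicate 2 in both zones, as were 32.8% of all tested genes. *NOTCH4* and *JAG2* were lower in replicate 2 in both zones, as were 31.8%. *DLL1* was lower in replicate 2 in SZCs and higher in DZCs. Each ratio compares replicate 2 with replicate 1 of one zone, and the labels do not say that libraries with the same number share an animal. *HES1* was 5.52-fold higher in replicate 2 in SZCs (95% exact counting interval 2.89 to 11.6) and 8.05-fold in DZCs (4.46 to 15.96). For *HEYL* the ratio was 7.90 in SZCs (3.39 to 22.6) and 1.39 in DZCs (0.683 to 2.95). *HEY1* had a ratio of 9.96 in SZCs (2.43 to 87.6) and of 2.64 in DZCs (0.698 to 14.7). That of *JAG1* was 1.52 in SZCs (1.37 to 1.70) and 4.43 in DZCs (3.47 to 5.72). The DZC intervals of *HEYL* and *HEY1*, the SZC intervals of *NOTCH1* and *NOTCH2* and both intervals of *NOTCH4* include a ratio of 1. *HEY1* reached 10 counts in the replicate 2 libraries only, so it passed the filter through those. *HES1* was over 2-fold higher in replicate 2 in both zones, as were 3.64% of all tested genes, and *JAG2* was over 2-fold lower, as were 0.661%. *HEY1* was over 2-fold higher as well but is not set against that share, given how it passed the filter. No receptor reached 2-fold in SZCs, where the ratios were 1.02 for *NOTCH1*, 1.03 for *NOTCH2*, 1.80 for *NOTCH3* and 0.960 for *NOTCH4*. In DZCs the ratios were 4.29 for *NOTCH1*, 2.13 for *NOTCH2*, 1.87 for *NOTCH3* and 0.871 for *NOTCH4*, so *NOTCH1*, *NOTCH2* and *NOTCH3* exceeded the DZC ratio of *HEYL*. For *NOTCH3* the counting intervals were 1.37 to 2.36 in SZCs and 1.10 to 3.31 in DZCs.

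Among the marker lists, 8 of 10 endothelial markers, 8 of 10 cell cycle genes and 5 of 7 mural cell markers were higher in replicate 2 in both zones, as were 1 of 9 chondrocyte markers, 2 of 10 markers of hypertrophic cartilage and bone, and 32.8% of all tested genes. Of the endothelial markers 5 had 0 counts in DZC replicate 1, and 5 did not pass the filter on which the share over all genes rests. *PECAM1* had 8 and 45 counts in SZCs and 2 and 18 in DZCs, *CDH5* (VE-cadherin) 1, 10, 0 and 7 times in the same order, and *CLDN5* 1 time in SZC replicate 2 and 0 times elsewhere. The whole list summed to 96.6 and 81.3 CPM in SZCs and 31.4 and 28.8 CPM in DZCs, most of it from *ERG*, a factor that articular chondrocytes also express. Without *ERG* the sum was 5.77 and 13.6 CPM in SZCs and 3.92 and 8.34 CPM in DZCs. Of 9 haematopoietic markers, 6 were higher in replicate 2 in both zones, and *HBB* was at 0 in the 4 libraries. The part of such cells or of the cell cycle in the levels of *HES1*, *HEY1* and *HEYL* was not tested.

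**Figure D4:**
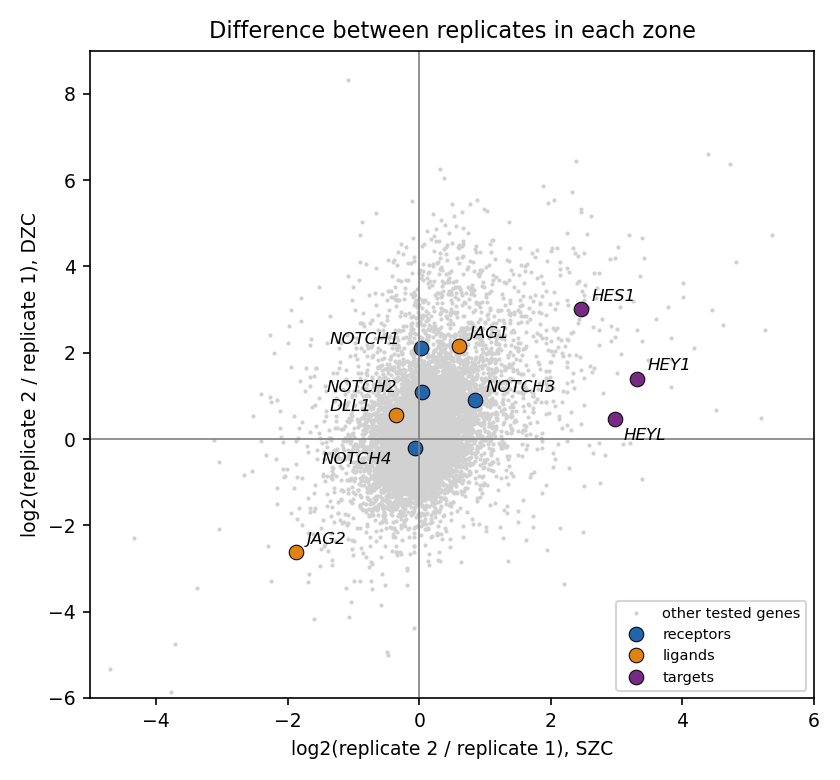
Log2 ratio of replicate 2 to replicate 1 (TMM-normalized CPM) in SZCs on the horizontal axis and in DZCs on the vertical axis, for the Notch members (coloured by role) and the other tested genes (grey); 145 tested genes with 0 counts in a library are not drawn. *HES1*, *HEY1*, *HEYL* and, nearer the centre, *NOTCH3* lie to the upper right and *JAG2* to the lower left. *NOTCH1*, *NOTCH2* and *JAG1* lie near 0 or slightly right of it on the SZC axis but above 0 on the DZC axis.

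Of 61 other genes of the pathway, 59 were found by symbol and 48 passed the filter. A single one, *DLK1*, reached an adjusted p below 0.05 in edgeR's exact test, against 2.23% of all tested genes with higher levels in SZCs. With *DLK1*, 6 of the 48 had an unadjusted p below 0.05, against 9.09% of all tested genes. The zone difference was positive for 27 and negative for 21 of the 48, with a median of 0.07. *DLK1* encodes a membrane protein that resembles the Delta ligands but lacks the domain by which they bind Notch. It had 7007 and 4479 counts in SZCs and 649 and 121 in DZCs, or 318 and 193 CPM against 40.4 and 5.42 CPM. Both SZC libraries lay far above both DZC libraries, and DZC replicate 1 was 7.44-fold above DZC replicate 2, the reverse of their order for *JAG1*. The difference was 3.48 on the log2 scale (standard error 0.86, adjusted p = 0.0156), or 11.2-fold with a 95% interval of 3.46-fold to 36.0-fold. Dropping one library at a time gave 2.68 to 5.56, and the gene was called in each of those 4 fits, while the quasi-likelihood test of edgeR gave an adjusted p of 0.357. *DLK2*, its paralogue, was at 2.45 and 1.51 CPM in SZCs and 0.622 and 1.08 CPM in DZCs (log2 difference 1.20, adjusted p = 0.739). *DLL4*, a Delta ligand of endothelial cells, was counted 18 and 15 times in SZCs and 11 times in each DZC library.

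**Figure D5:**
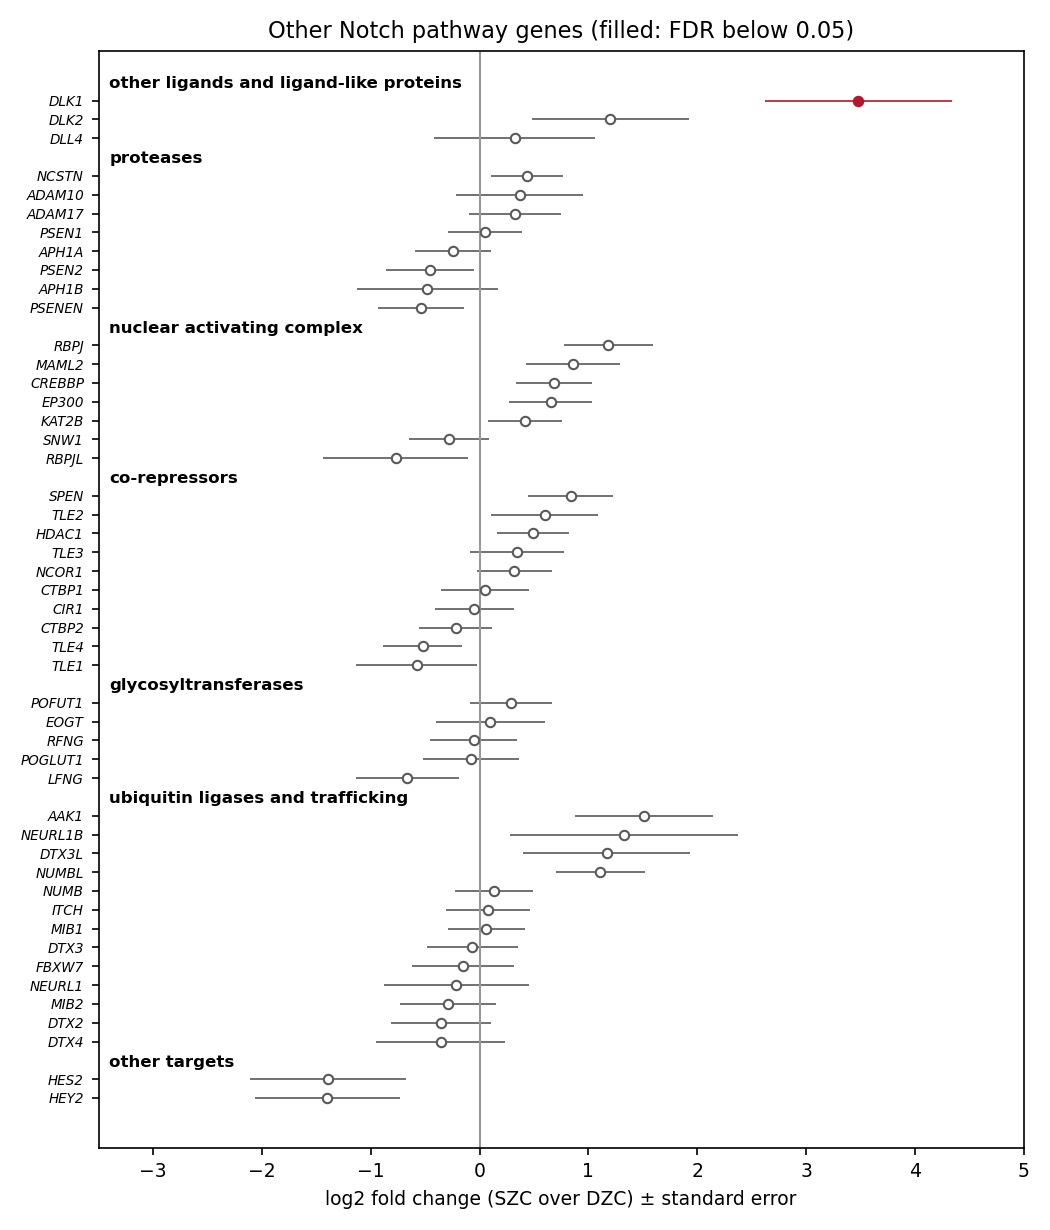
Log2 fold change (SZC over DZC, all 4 libraries) with its standard error for the 48 other pathway genes tested, grouped by role. *DLK1* at 3.48 is the one filled symbol, which marks an adjusted p below 0.05 by edgeR's exact test.

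In the nuclear complex, *RBPJ*, the DNA-binding protein through which Notch acts, was at 38.1 and 34.7 CPM in SZCs and 11.9 and 20.04 CPM in DZCs. The zones did not overlap, and the log2 difference was 1.18 (standard error 0.41, 95% interval 0.38 to 1.99), where edgeR's exact test gave p = 0.00439 before adjustment and 0.111 after it. Without DZC replicate 1 it was 0.86 and without DZC replicate 2 it was 1.63. *RBPJ* is named here because of its values, as are *RBPJL*, *NUMBL*, *AAK1* and *SPEN* below. Of the other 6 tested genes of this complex, 4 had SZC libraries above DZC libraries, against 21.0% of all tested genes, among them the acetyltransferase *CREBBP* with a log2 difference of 0.69 (adjusted p = 0.558). *RBPJL*, a relative of *RBPJ*, had DZC libraries above SZC libraries, with a log2 difference of -0.77 (adjusted p = 0.927), and *SNW1* overlapped at -0.28. Among 10 co-repressors *SPEN* had the largest log2 difference, 0.84 (adjusted p = 0.432), and *NCOR1* was at 0.32. Without DZC replicate 1 *CREBBP* and *SPEN* were each at 0.60, and without DZC replicate 2 they were at 0.81 and 1.15.

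None of the 8 protease genes whose products release the intracellular domain was called, against 2.93% of all tested genes. Among them the log2 difference ran from -0.54 for the γ-secretase subunit *PSENEN* to 0.44 for the subunit *NCSTN*. None had an unadjusted p below 0.05 in edgeR's exact test, against 9.09% of all tested genes. *ADAM10*, which makes the first cut, had 433 and 446 counts in SZCs and 122 and 502 in DZCs, again with DZC replicate 1 the low library. Its log2 difference was -0.21 without that library and 1.38 without DZC replicate 2. *PSENEN* was at -0.13 without DZC replicate 1 and at -0.83 without DZC replicate 2. Of 5 tested glycosyltransferases, which modify the receptor's extracellular part, none had an unadjusted p below 0.05 either, against the same 9.09%. *LFNG* (lunatic fringe) was at 7.04 and 6.85 CPM in SZCs and at 13.1 and 8.96 CPM in DZCs (log2 difference -0.66, adjusted p = 0.843). Of 13 tested ubiquitin ligases and trafficking genes, *NUMBL*, a relative of the Notch inhibitor Numb, had a log2 fold change of 1.11 (adjusted p = 0.158) and the kinase gene *AAK1* one of 1.51 (adjusted p = 0.326). Without DZC replicate 1 these were 1.41 and 0.88, and without DZC replicate 2 they were 0.89 and 2.71. *NUMB* itself was at 0.13, and the ligases *MIB1* and *ITCH* were at 0.06 and 0.08.

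Of 7 further target genes found in the table, only *HEY2* and *HES2* passed the filter, and both had DZC libraries above SZC libraries, as did 20.5% of all tested genes. *HEY2* had 41 and 135 counts in SZCs and 171 and 215 in DZCs, or 1.86 and 5.82 CPM against 10.6 and 9.64 CPM. The log2 difference of *HEY2* was -1.40 (standard error 0.66, 95% interval -2.70 to -0.10), where edgeR's exact test gave p = 0.0418 before adjustment and 0.498 after it. It was -0.80 without SZC replicate 1 and -2.44 without SZC replicate 2, with neither called. In SZCs replicate 2 was the higher library of *HEY2* and in DZCs the lower one. *HES1*, *HEY1* and *HEYL* were higher in replicate 2 in both zones, as were *NOTCH1*, *NOTCH2*, *NOTCH3* and *JAG1*. *HES2* was at 1.23 and 1.46 CPM in SZCs and 5.04 and 2.06 CPM in DZCs and differed by -1.39 on the log2 scale (adjusted p = 0.619). This became -0.61 without DZC replicate 1 and -1.88 without DZC replicate 2. *HES5* was counted 2 and 1 times in SZCs and 0 times in both DZC libraries, *NRARP* 1, 5, 4 and 2 times, and *HELT* was at 0 in the 4 libraries, so no difference was detectable for them at this depth.

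Genes with the most similar levels across the 4 libraries were sought for *NOTCH3* and *NOTCH2*, the members with the largest fold change over the 4 libraries and the most reads. Likeness was the root mean square difference of log2(CPM + 1) after centring each gene, over 4 libraries that share their scaling. For *NOTCH3* the closest genes were *GPR1*, *LY6E* and *CMYA5*, at 0.038, 0.044 and 0.052 log2 units. For *NOTCH2* they were *SUGP2*, *CPLANE1* and *ARRB2*, at 0.013, 0.031 and 0.035 log2 units. The pseudocount of 1 compresses the values of genes near 1 CPM. *ARRB2*, at 0.373 to 2.27 CPM, had a ratio of DZC replicate 2 to replicate 1 of 5.40, against 2.13 for *NOTCH2*, and *GPR1*, at 0.311 to 3.58 CPM, had one of 3.03, against 1.87 for *NOTCH3*, so the likeness of both holds on this scale only.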

How the data were processed

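The data are RNA-Seq of cultured SZCs and DZCs, 2 libraries a zone. The study made the libraries with the SMART-Seq v4 kit and sequenced 75-bp single-end reads, which the authors aligned with STAR 2.5.2b to Ensembl build UMD 3.1. The authors deposited raw read counts per gene, counted without regard to strand, so reads from overlapping genes cannot be told apart. In the RefSeq table of another assembly (ARS-UCD2.0), 8 of the 10 members overlapped no other gene, and *NOTCH2* and *JAG1* each overlapped 1 pseudogene. A second deposited table holds the authors' own log2 fold changes and adjusted p-values. None of these were used, only its symbols, which filled 19 blank gene names. The 4 ATAC-Seq samples were not analysed here, and sequences and transcript lengths were not used.

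Zones were compared with the exact test of edgeR 4.0.16 (R 4.3.3) at an FDR threshold of 0.05, following the study's methods, after TMM scaling and edgeR's default filter on low counts. Standard errors and 95% intervals follow from the gene-wise dispersion of the negative binomial model. The alternatives were the quasi-likelihood test with and without the replicate number as a block, DESeq2 1.42.0, other filters (none, or more than 1 CPM in 2 libraries), other scalings (library totals, DESeq2 size factors) and leaving out each library. No library was a copy of another (chi-square per degree of freedom between replicates 61.9 for SZCs, 303 for DZCs). Scripts were tested on simulated data.

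The members and lists were chosen with earlier results of these data known. One pathway gene of the lists is not reported here. The text names all members, called pathway genes, up to 2 genes with the highest mean CPM in each role, and the closest genes of 2 members. The comparison of replicates, and genes named for an unadjusted p, for a count or as a role's extreme (among them *LFNG*, *ADAM10*, *NUMB* and *PSENEN*), were added after the values were seen.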

Additional observations from a re-analysis of the deposited data

How the results depend on the processing

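The quasi-likelihood test of edgeR without a block called 0 genes (0 higher in SZCs and 0 higher in DZCs, with 1126 at an unadjusted p below 0.05), 0 of the Notch members and 0 of the other pathway genes, and gave *PRG4* 6.08 on the log2 scale (FDR 0.14) and *CREB5* 4.61 (FDR 0.0775). The cause was not tested. The exact test called 377 genes, 287 higher in SZCs and 90 higher in DZCs. With library totals 332 genes were called, 44 of them higher in DZCs, so that 86.7% of calls were higher in SZCs against 76.1% for TMM, and the log2 difference of all genes had a median of 0.26 against -0.04. Then 2 other pathway genes were called, *DLK1* and *NUMBL*, and *NOTCH1* (0.11), *APH1A* (0.10), *SNW1* (0.0676) and *RFNG* (0.32) changed sign.

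Same-numbered libraries deviated from their zone means with a correlation of 0.42 across genes, but the labels give only the shared number. Adding this number as a replicate block to the quasi-likelihood test gave 347 called genes and 0 called members, with 3 members at an unadjusted p below 0.05 against 12.8% of all tested genes. In that paired fit *JAG1* was at 1.58 (FDR 0.0844) and *DLK1* at 4.04 (FDR 0.00793), and *NOTCH1* (0.29, FDR 0.869) and *HEYL* (-0.0841, FDR 0.977) changed sign, all by edgeR's test.

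With each library left out, 68 to 2768 genes were called (62 to 1656 higher in SZCs, 6 to 1112 higher in DZCs), 0 to 4 members and 1 to 13 other pathway genes. A fit without a DZC library estimates the spread within zones from the SZC pair alone. The log2 fold change ranged from -0.73 to 1.39 for *NOTCH1*, -2.75 to 1.14 for *HES1*, -1.86 to 1.42 for *HEY1*, -1.80 to 1.15 for *HEYL*, -0.35 to 0.36 for *RFNG*, -0.20 to 0.45 for *ITCH*, -0.21 to 1.38 for *ADAM10*, -0.0611 to 0.38 for *NUMB*, -2.44 to -0.80 for *HEY2* and -0.13 to 0.31 for *MIB1*. *NOTCH2*, *NOTCH3*, *NOTCH4*, *JAG1*, *JAG2* and *DLL1* kept their direction under the 11 alternatives run. *HEY1* and *DLL4* did not pass the filter of more than 1 CPM, and receptor shares per protein length were not run, since lengths were not used here.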
